A study of Mus musculus with 12 samples.

Results

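The T helper effector cytokines described here are 10 genes, Ifng, Il2, Il4, Il5, Il13, Il17a, Il17f, Il21, Il22 and Csf2, taken by name from the 55413 genes of a mouse bulk RNA-seq study of regulatory T (Treg) cells. All 10 had counts. A filter on low counts, which keeps a gene with enough counts in the libraries of at least the smallest group, passed 8 of them, and Il4 and Il17f did not pass it. Since the mean level of every member was highest in tumor pTreg, which favors passing genes that are high there, counts of called members are given over all 10 genes, from a fit of the 27279 genes with any count.

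CD4+ T helper cells are sorted into subsets by the cytokines they secrete. Th1 cells make interferon gamma under T-bet, Th2 cells make IL-4, IL-5 and IL-13 under GATA3, Th17 cells make IL-17A, IL-17F and IL-22, and follicular helper cells make IL-21. In Treg cells Foxp3 is known to repress several of these genes, Il2 foremost, and Treg cells live on IL-2 made by other T cells.

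The question of the series, as its labels give it, was how Treg cells of peripheral origin (pTreg) compare with Treg cells of thymic origin (tTreg) inside a tumor. Hosts were TCRbd-/- mice, which have no T cells of their own but keep NK cells, innate lymphoid cells, B cells and myeloid cells. They received tTreg from spleen and lymph nodes of CD45.1 Foxp3YFP-cre donors, together with Foxp3- conventional CD4+ cells and CD8+ cells of CD45.2 Foxp3YFP-cre donors, mixed at 1 tTreg to 10 conventional CD4+ to 8 CD8+ cells. Hepa1-6 mouse hepatoma cells were inoculated 3 days after the transfer, and Treg cells were sorted from the CD4+ cells of the tumor infiltrate on day 18 after inoculation.

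The groups were tumor pTreg (n = 3 libraries), tumor tTreg (n = 5) and Treg of lymph nodes (LN Treg, n = 4), which came from mice without a tumor, were sorted as total Treg and received no treatment. Both tumor groups share the transfer, the host genotype and the tumor, and LN Treg share none of these by label, although the genotype field of all 12 libraries names Foxp3YFP-cre and TCRbd-/- mice together. The labels do not say that libraries of a group came from separate animals, so p-values measure the spread between these libraries, which may be technical.

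Total counts per library were 17964262 to 18180959 in tumor pTreg, 18107272 to 18510923 in tumor tTreg and 14573864 to 17323894 in LN Treg. T cell transcripts made up very different parts of these libraries. The summed level of 18 genes of the T cell receptor complex and its signaling (the pan-T genes, such as Lck, Cd2 and the CD3 chains) was 1356 ± 15.0 CPM (counts per 1000000 counts of the library) in tumor pTreg, 132 ± 3.26 CPM in tumor tTreg and 6271 ± 70.4 CPM in LN Treg (SD). Foxp3, the factor that defines Treg cells, read 20.3 ± 0.583, 8.74 ± 0.478 and 441 ± 11.1 CPM in the same 3 groups, which per 100 pan-T counts was 1.5 ± 0.0337, 6.62 ± 0.276 and 7.03 ± 0.197. The libraries labelled tumor pTreg therefore held less Foxp3 per T cell transcript than the other libraries. The 9 macrophage markers summed to 4335 ± 11.3 CPM in tumor pTreg, 4447 ± 84.6 in tumor tTreg and 13.2 ± 1.55 in LN Treg, and 7 Hepa1-6 or hepatocyte markers to 5528 ± 187, 8093 ± 144 and 8.45 ± 0.907. In bulk libraries such as these, fewer cells of a type and less RNA per cell cannot be told apart. Each cytokine is therefore given by CPM and also per 10000 pan-T counts, and its fold change is given on both scales.

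Ifng, the signature cytokine of Th1 cells, was the member with the highest counts in every library. It read 101, 102 and 104 CPM in the 3 tumor pTreg libraries, 3.01, 3.01, 3.24, 2.90 and 1.88 CPM in the 5 tumor tTreg libraries, and 14.6, 11.9, 14.4 and 14.1 CPM in the 4 LN Treg libraries. The 3 groups did not overlap, with tumor pTreg highest and tumor tTreg lowest. Between tumor pTreg and tumor tTreg the log2 fold change was 5.19 (standard error 0.0711, adjusted p = 2.85e-29), a 36.6-fold difference. All adjusted p-values are from edgeR's quasi-likelihood test with Benjamini-Hochberg adjustment over all genes of the fit, and a gene is called below 0.05. Per 10000 pan-T counts Ifng stood at 754, 747 and 768 in the tumor pTreg libraries, at 234, 234, 245, 214 and 140 in the tumor tTreg libraries, and at 23.5, 18.9, 22.7 and 22.7 in LN Treg. On that scale tumor pTreg was again highest, by 3.55-fold over tumor tTreg (1.83 on the log2 scale, adjusted p = 5.98e-20), but tumor tTreg now stood above LN Treg. Cd8a, a marker of the transferred CD8+ T cells, which also make Ifng, Il2 and Csf2, read 23.6 ± 0.942 CPM in tumor pTreg, 0.667 ± 0.186 CPM in tumor tTreg and 8.24 ± 1.13 CPM in LN Treg. Per 100 pan-T counts Cd8a was 1.74 ± 0.0729, 0.504 ± 0.134 and 0.131 ± 0.0166 in that order, and the part of CD8+ cells in the level of these cytokines was not tested.

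Il2 encodes the growth factor on which Treg cells depend and which they themselves do not normally make. The tumor pTreg libraries held 15, 21 and 20 Il2 counts (0.825, 1.17 and 1.11 CPM), the 5 tumor tTreg libraries held none, and the LN Treg libraries held 3, 4, 3 and 3 counts. Tumor pTreg stood above both other groups in every library. A floor of 3 counts over the 5 tumor tTreg libraries together (0.0328 CPM) allows for counting error in tumor tTreg only. Il2 in tumor pTreg stood 31.5-fold above that floor by CPM and 3.06-fold above it per pan-T count, with the tumor pTreg counts taken as exact. The tests between the tumor groups gave an adjusted p of 2.63e-09 by CPM and 2.60e-04 per pan-T count.

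The Th2 cytokines lie in 1 gene cluster on chromosome 11 and did not move alike. Il13, which drives mucus and alternative activation of macrophages, read 7.59, 6.46 and 7.58 CPM in tumor pTreg, 0, 0.109, 0.0540, 0 and 0.0552 CPM in tumor tTreg, and 0.235, 0.206, 0.346 and 0.232 CPM in LN Treg. All 5 tumor tTreg libraries, with 4 Il13 counts in all, lay below all LN Treg libraries, and all 3 tumor pTreg libraries lay above both. The log2 fold change between tumor pTreg and tumor tTreg was 7.16 (standard error 0.287, adjusted p = 2.15e-18), and per pan-T count it was 3.99 (adjusted p = 8.71e-11), the largest among members with a count in both groups on either scale.

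Il4, the cytokine that starts Th2 differentiation, read 0.495, 0.278 and 0.498 CPM in tumor pTreg (9, 5 and 9 counts), 0.274, 0.164, 0.162, 0.274 and 0.276 CPM in tumor tTreg (5, 3, 3, 5 and 5 counts), and 0.177, 0.274, 0.0577 and 0.174 CPM in LN Treg. The tumor pTreg values lay just above all tumor tTreg values, by a gap smaller than the spread within either group. The difference between the tumor groups did not pass the test (log2 fold change 0.88, 95% interval -0.12 to 1.87, adjusted p = 0.211). Per 10000 pan-T counts Il4 stood at 3.70, 2.03 and 3.66 in the tumor pTreg libraries and at 21.2, 12.8, 12.2, 20.2 and 20.5 in the tumor tTreg libraries, without overlap. Il4 was thus the 1 member that was lower in tumor pTreg on that scale (log2 fold change -2.46, adjusted p = 6.80e-06). The same scale put 75.9% of all genes with a count lower in tumor pTreg, with the median tested gene at -3.38, so Il4 was lowered less than that median.

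Il5, the growth factor of eosinophils, had 30, 36 and 30 counts in tumor pTreg (1.65, 2.0 and 1.66 CPM), against 1, 1, 0, 0 and 0 counts in tumor tTreg and 0, 0, 1 and 1 counts in LN Treg. The tumor pTreg libraries stood far above both. By counts relative to library totals the ratio to tumor tTreg was 81.0 (95% interval 21.8 to 678, exact binomial, counting error only) and the ratio to LN Treg was 58.5 (15.8 to 490). The fitted difference between the tumor groups passed the test by CPM (adjusted p = 2.04e-11) and per pan-T count (log2 fold change 2.96, adjusted p = 2.88e-04).

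The make-up of the Th2 cluster also differed between groups, by a measure that needs no scaling, the ratio of 2 genes within the same libraries. Il13 had 17.0 counts for each Il4 count in tumor pTreg (95% interval 11.2 to 27.1), 0.190 in tumor tTreg (0.0475 to 0.565) and 1.55 in LN Treg (0.683 to 3.65). These are ratios of counts summed over each group's libraries, not corrected for transcript length, and the 3 intervals, which cover counting error only, do not overlap. The ratio of Il13 to Il5 was 4.07 (3.25 to 5.15) in tumor pTreg, 2 (0.287 to 22.1) in tumor tTreg and 8.5 (2.02 to 75.9) in LN Treg, and its intervals overlap.

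**Figure D1:**
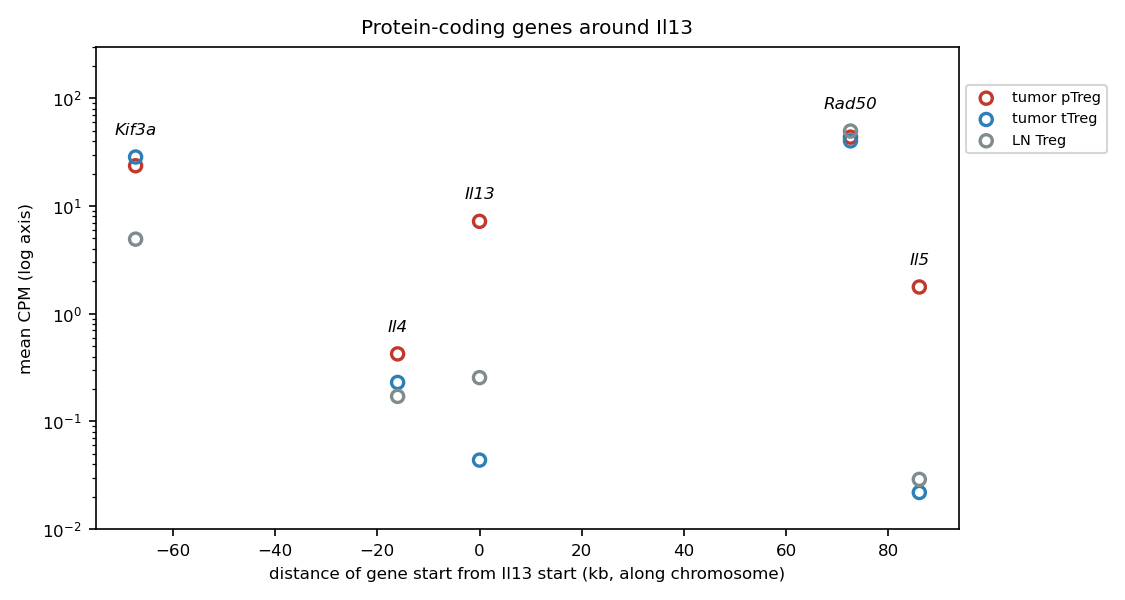
Mean CPM (log axis) of the protein-coding genes whose start lies within 100 kb of the start of Il13, against the distance between the starts in kb along the chromosome, with 1 ring per group (3 tumor pTreg, 5 tumor tTreg and 4 LN Treg libraries). Il13, Il4 and Il5 were highest in tumor pTreg, while Rad50, between Il13 and Il5, read 43.7, 40.3 and 49.7 CPM in tumor pTreg, tumor tTreg and LN Treg.

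The starts of Il4 and Il13 lie 16.0 kb apart, and those of Il13 and Il5 86.1 kb, with Rad50 between them (GRCm38, GENCODE vM21: Il4 chr11:53602982-53618669 and Il13 chr11:53631324-53634702, both on the minus strand, and Il5 chr11:53720794-53725106 on the plus strand). The 250 bases before the RefSeq start are printed for the Th2 pair whose ratio differed between the groups, for Ifng as the most abundant member and for Il17a as the member without a match. Sequences are 5′ to 3′ on the gene's own strand from the RefSeq table of GRCm38.p6, where all 10 members were found. Capitals mark GGAAA or its complement TTTCC, the core that factors of the NFAT family bind after T cell receptor stimulation. The windows are chr11:53634703-53634952 for Il13, chr11:53618666-53618915 for Il4, chr10:118440796-118441045 for Ifng and chr1:20730655-20730904 for Il17a.
Il13: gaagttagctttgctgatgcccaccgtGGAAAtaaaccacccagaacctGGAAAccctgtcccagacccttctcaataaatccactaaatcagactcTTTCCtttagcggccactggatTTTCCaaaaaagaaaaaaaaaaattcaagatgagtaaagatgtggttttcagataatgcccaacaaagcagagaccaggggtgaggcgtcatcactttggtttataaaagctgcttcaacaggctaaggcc
Il4: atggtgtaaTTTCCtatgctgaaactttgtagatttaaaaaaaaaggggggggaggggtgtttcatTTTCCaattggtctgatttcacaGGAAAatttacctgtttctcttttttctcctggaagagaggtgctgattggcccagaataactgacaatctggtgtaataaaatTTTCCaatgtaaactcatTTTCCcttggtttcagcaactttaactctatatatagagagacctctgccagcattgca
Ifng: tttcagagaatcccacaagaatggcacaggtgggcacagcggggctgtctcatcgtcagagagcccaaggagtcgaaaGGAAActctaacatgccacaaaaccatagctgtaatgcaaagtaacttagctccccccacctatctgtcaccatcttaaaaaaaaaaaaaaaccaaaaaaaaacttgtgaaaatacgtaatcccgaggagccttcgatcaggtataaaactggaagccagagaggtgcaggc
Il17a: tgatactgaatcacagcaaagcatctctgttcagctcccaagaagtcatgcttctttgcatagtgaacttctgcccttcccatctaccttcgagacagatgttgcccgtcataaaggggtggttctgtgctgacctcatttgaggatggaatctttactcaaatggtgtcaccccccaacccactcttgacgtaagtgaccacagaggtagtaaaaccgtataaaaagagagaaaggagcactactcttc
On both strands Il4 held 5 matches at this start, the outer of 2 that RefSeq lists, and none at its other start, while Il13 held 4, Ifng 1 and Il17a 0. Of 32851 promoter windows of the same length 55.6% held at least 1 such match and 1.59% held 4 or more. The remaining members held 3 (Il21), 2 (Il2, Il5, Il17f and Csf2) and 1 (Il22). Further motifs searched on both strands were AP-1 (TGANTCA), found in Il17a and in 6.75% of all windows, the T-box motif TCACAC, found in Il21 (12.3%), the STAT site TTCNNNGAA, found in Ifng (7.02%), the GATA site AGATAA, found in Il13, Il22 and Csf2 (9.99%), and the TATA box TATAAA, found in Ifng, Il2, Il13, Il17a, Il17f and Il22 (12.4%). Il4 and Il13, which differed between the tumor groups in opposite directions per pan-T count, both held at least 4 cores, and a match of letters is a description, not a site in use.

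Il17a, the defining cytokine of Th17 cells, read 3.58, 3.73 and 3.37 CPM in tumor pTreg, 0.164, 0.0546, 0, 0 and 0.0552 CPM in tumor tTreg, and 0.0588, 0.137, 0.0577 and 0.116 CPM in LN Treg. Tumor pTreg stood above the other groups, which overlapped. The log2 fold change between tumor pTreg and tumor tTreg was 5.86 (standard error 0.358, adjusted p = 4.11e-14) by CPM and 2.65 (adjusted p = 7.04e-06) per pan-T count. Without tumor tTreg replicate 1, which held 3 of the 5 Il17a counts of that group, it was 6.70 by CPM. Il17f, its neighbor 59.7 kb away on chromosome 1, encodes the partner with which IL-17A forms a heterodimer. It had 13, 8 and 10 counts in the tumor pTreg libraries, 0, 0, 3, 2 and 0 counts in the tumor tTreg libraries and 1 count in each LN Treg library. By CPM Il17f was higher in tumor pTreg without overlap (3.24 on the log2 scale over tumor tTreg, adjusted p = 2.50e-06, and 4.08 without tumor tTreg replicate 3). Per pan-T count they overlapped and the difference did not pass the test (log2 fold change 0.03, adjusted p = 1).

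Il22, which acts on epithelial cells including hepatocytes, had 107, 131 and 91 counts in tumor pTreg (5.89, 7.29 and 5.03 CPM), 3, 2, 0, 4 and 2 counts in tumor tTreg, and 0, 2, 1 and 1 counts in LN Treg. Tumor pTreg stood apart from both other groups, which overlapped. The log2 fold change between the tumor groups was 5.58 by CPM (standard error 0.288, adjusted p = 8.37e-16) and 2.29 per pan-T count (adjusted p = 9.17e-07). The split of reads between Il22 and Iltifb, a copy on the same chromosome whose longest coding transcript is 97.3% identical to that of Il22, is uncertain. Iltifb had 2, 8 and 7 counts in tumor pTreg, none in tumor tTreg and 1, 0, 2 and 0 in LN Treg. With both summed, the log2 fold change between the tumor groups was 5.66, and against LN Treg, which held 3 Iltifb counts and 4 Il22 counts, it was 5.92 in place of 6.59.

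Il21, a cytokine of follicular helper cells that acts on B cells and CD8+ T cells, had 179, 189 and 190 counts in tumor pTreg (9.85, 10.5 and 10.5 CPM), 2, 1, 1, 0 and 5 counts in tumor tTreg and 4, 4, 4 and 7 counts in LN Treg. Tumor pTreg lay above both groups in every library. Per 10000 pan-T counts it read 73.5, 76.9 and 77.3 in the tumor pTreg libraries, 8.49, 4.25, 4.08, 0 and 20.5 in the tumor tTreg libraries, and 0.377, 0.436, 0.363 and 0.656 in LN Treg. The log2 fold change between the tumor groups was 6.62 by CPM (standard error 0.237) and 3.34 per pan-T count (adjusted p = 1.70e-11). Without tumor tTreg replicate 5, which held 5 of the 9 Il21 counts of that group, it was 7.40 by CPM.

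Csf2 encodes GM-CSF, which feeds and activates macrophages and granulocytes. It read 11.8, 9.63 and 11.6 CPM in tumor pTreg, 0.274, 0.546, 0.486, 0.548 and 0.387 CPM in tumor tTreg, and 0.0588, 0.0686, 0.115 and 0.0581 CPM in LN Treg. The 3 groups did not overlap, and Csf2 was the 1 member for which tumor tTreg exceeded LN Treg by CPM in every library. Between the tumor groups the log2 fold change was 4.60 by CPM (standard error 0.162, adjusted p = 8.61e-20) and 1.26 per pan-T count (adjusted p = 7.91e-07), the smallest among the 8 members that were higher on both scales.

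**Figure D2:**
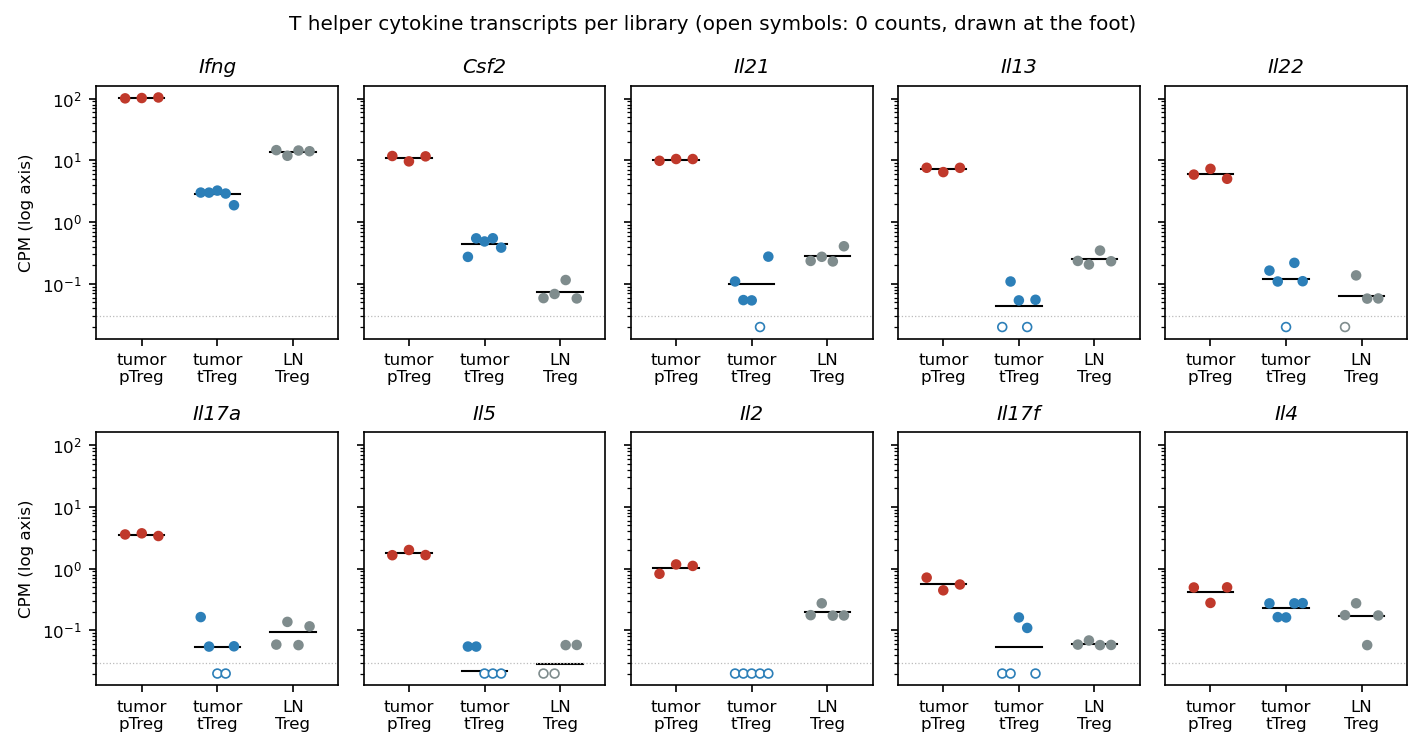
CPM of each cytokine on a log axis, with 1 point per library, a bar at the group mean, and libraries with 0 counts as open symbols at the foot. The 3 tumor pTreg libraries lie above every tumor tTreg and LN Treg library for all 10 cytokines, from 101 to 104 CPM for Ifng down to 0.278 to 0.498 CPM for Il4.

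Across all 10 members, 9 were called higher in tumor pTreg than in tumor tTreg by CPM and none lower in the fit of all genes with a count, where 16.1% of genes were called higher and 14.3% lower. Il4 was not called. All 10 were higher in tumor pTreg without overlap of the groups, as were 24.4% of the 15705 genes that passed the filter. Calls are common in this comparison, since 52.1% of the filtered genes passed the test in either direction. Per pan-T count 8 members were called higher (Ifng, Il2, Il5, Il13, Il17a, Il21, Il22 and Csf2), 1 lower (Il4) and Il17f was not called. The same 8 were higher and the same 1 lower without overlap. On that scale 0.326% of all genes with a count were called higher and 75.9% lower, 0.484% of filtered genes were higher without overlap and 95.2% lower, and the median tested gene had a log2 fold change of -3.38.

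**Figure D3:**
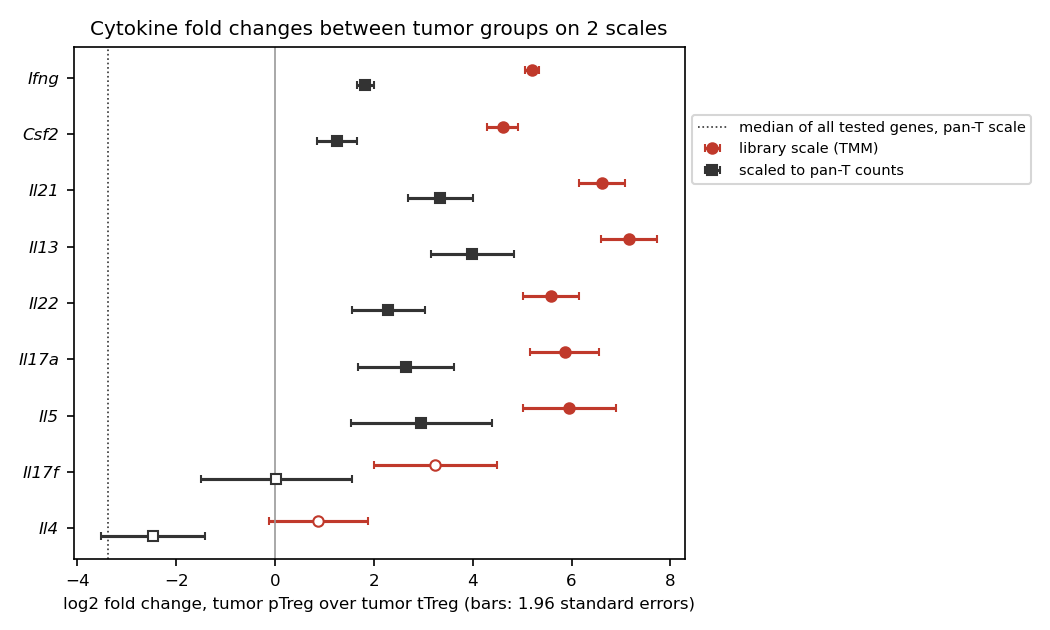
Log2 fold change of tumor pTreg over tumor tTreg with 95% intervals, by library scale (circles) and scaled to pan-T counts (squares), for the members with a count in both groups; open symbols are genes from the fit without a filter, and the dotted line is the median of all tested genes on the pan-T scale. The 7 cytokines other than Il2 that were called on both scales lie right of 0 on both scales, from 1.26 for Csf2 to 3.99 for Il13 on the pan-T scale, whereas Il17f lies at 0.03 and Il4 at -2.46.

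**Figure D4:**
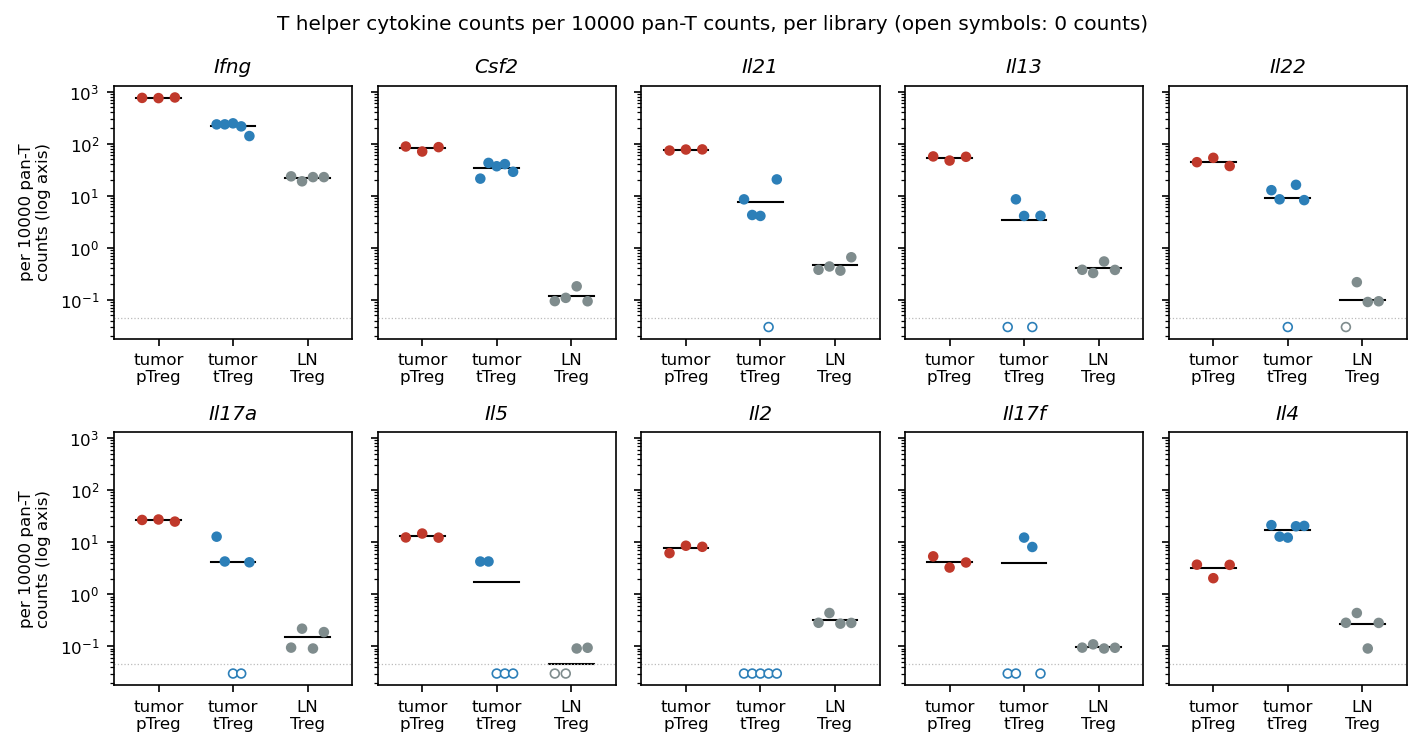
Counts per 10000 pan-T counts on a log axis, with 1 point per library, a bar at the group mean, and libraries with 0 counts as open symbols at the foot. Il4 is the 1 cytokine whose tumor tTreg libraries (12.2 to 21.2) lie above the tumor pTreg libraries (2.03 to 3.70). The lowest filled tumor tTreg symbols, at 4.08 to 4.25, stand for 1 count.

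Levels of different genes can be set side by side only per transcript length, as FPKM, in which fragments are divided by transcript length and library size. In tumor pTreg the order by mean FPKM was Ifng (121 ± 9.48), Csf2 (22.5 ± 2.58), Il13 (8.04 ± 0.753), Il22 (7.57 ± 1.39), Il17a (4.13 ± 0.191), Il21 (3.88 ± 0.0493), Il4 (1.51 ± 0.427), Il5 (1.44 ± 0.159), Il2 (1.24 ± 0.216) and Il17f (0.743 ± 0.204). Il13 and Il22 did not differ beyond their spread, and neither did Il4, Il5 and Il2. In tumor tTreg Ifng (4.19 ± 1.05) was followed by Csf2 (0.924 ± 0.246) and Il4 (0.832 ± 0.226), which overlapped, and the other 7 were at or below 0.150 FPKM. In LN Treg Ifng (18.1 ± 2.35) was followed by Il4 (0.613 ± 0.339), with the other 8 at or below 0.285 FPKM.

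The 10 cytokines summed to 172 ± 10.2 FPKM in tumor pTreg, 6.42 ± 0.859 in tumor tTreg and 19.8 ± 2.11 in LN Treg. Ifng made up 70.4 ± 1.68% of that sum in tumor pTreg, 64.4 ± 8.05% in tumor tTreg and 91.2 ± 2.85% in LN Treg. The share of Csf2 was 13 ± 1.25% in tumor pTreg, 14.7 ± 4.45% in tumor tTreg and 0.787 ± 0.311% in LN Treg, so both tumor groups differed from LN Treg by more than their spread. The share of Il4 was 0.873 ± 0.225%, 13.4 ± 5.01% and 3.18 ± 2.04% in the same order of groups, and the tumor groups did not overlap. Without Ifng the sum was 51.0 ± 2.32 FPKM in tumor pTreg, 2.24 ± 0.240 in tumor tTreg and 1.71 ± 0.389 in LN Treg.

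**Figure D5:**
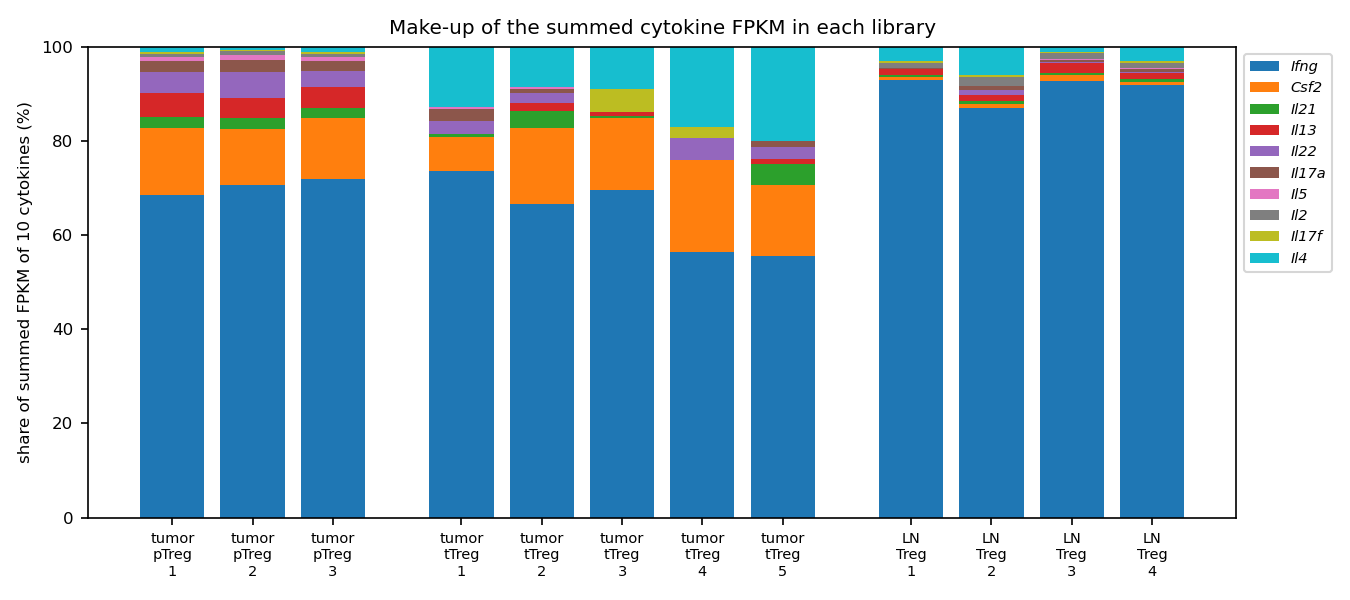
Share of each cytokine in the summed FPKM of the 10 genes (percent, stacked to 100), with 1 bar per library. Ifng takes 68.5 to 71.9% in tumor pTreg, 55.5 to 73.5% in tumor tTreg and 87.0 to 93.0% in LN Treg, and the Il4 segment is widest in tumor tTreg at 8.42 to 19.9%.

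Against LN Treg, all 10 members were called higher in tumor pTreg, where 32.5% of all genes with a count were, and all 10 were higher without overlap, as were 43.6% of the filtered genes. The comparison shares its tumor pTreg libraries with the one above. Csf2 differed most, by 143-fold (log2 fold change 7.16, standard error 0.244, adjusted p = 3.50e-21), followed by Il22 at 6.59 (standard error 0.357) and Il5 at 5.66 (0.505). Il17a (5.29), Il21 (5.23) and Il13 (4.87) came next, then Il17f (3.20) and Ifng (3.00, standard error 0.0588, adjusted p = 3.84e-27). Il2, at 2.45 (0.389, adjusted p = 2.98e-06), and Il4, at 1.41 (0.579, adjusted p = 0.0267), differed least. The Il4 call was lost without LN Treg replicate 3 (adjusted p = 0.108), without tumor pTreg replicate 1 (0.0827) or without tumor pTreg replicate 3 (0.0819). Per pan-T count all 10 were higher, as were 66.4% of all genes with a count, with the median tested gene at 2.22.

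In tumor tTreg against LN Treg the members split. By CPM 4 of 10 were called lower (Ifng, Il2, Il13 and Il21) and 1 higher (Csf2), where 28.4% of all genes with a count were lower and 33.7% higher. Without overlap 3 were lower (Ifng, Il2 and Il13) and 1 higher, against 42.0% and 43.2% of the filtered genes. Ifng fell to 2.81 ± 0.534 CPM in tumor tTreg, against 13.8 ± 1.28 CPM in LN Treg (log2 fold change -2.20, standard error 0.0997, adjusted p = 2.81e-18). Il13 fell as well (-2.29, adjusted p = 0.00122). Il2 had no counts in tumor tTreg and was called lower (adjusted p = 7.81e-05), with LN Treg 5.99-fold above the floor if its own counts are taken as exact. Il21 was lower at -1.39 (adjusted p = 0.0188) with groups that overlapped. The Il21 call was lost without LN Treg replicate 4 (adjusted p = 0.0741) and without tumor tTreg replicate 4 (0.0502), and the value was -2.17 without tumor tTreg replicate 5. In FPKM Il21 read 0.112 ± 0.127 in tumor tTreg and 0.108 ± 0.031 in LN Treg, and limma on log2(FPKM + 0.1) gave an adjusted p of 0.663. Csf2 rose to 0.448 ± 0.118 CPM in tumor tTreg, against 0.0753 ± 0.0272 CPM in LN Treg (log2 fold change 2.55, adjusted p = 2.21e-05). The 5 others did not pass the test, with 95% intervals of -2.45 to 1.87 for Il5, -2.10 to 0.95 for Il17a, -1.90 to 1.80 for Il17f, -0.60 to 1.67 for Il4 and -0.55 to 2.55 for Il22.

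Per pan-T count the same comparison turned: 9 of 10 members were called higher in tumor tTreg, where 85.1% of all genes with a count were, and the median tested gene stood at 5.57. Without overlap 3 were higher (Ifng, Il4 and Csf2) and 1 lower (Il2), against 95.4% and 1.03% of the filtered genes. Ifng was higher there by 3.27 on the log2 scale, less than that median, while Csf2 at 7.82 lay above it. The 5 tumor tTreg libraries held only 2351 to 2477 pan-T counts each, so 1 count in 1 library is worth about 4.08 per 10000. Of the members only Ifng reached that level in LN Treg, at 21.9 ± 2.08. For Il2, 0 counts in the 5 tumor tTreg libraries allow up to 2.49 per 10000 pan-T counts, above the LN Treg level of 0.318 ± 0.0787, so a difference per pan-T count was not detectable (adjusted p = 0.392).

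The transcription factors that direct these cytokines were counted in lists by subset, for tumor pTreg against tumor tTreg and with both scales in turn. Of all filtered genes 26.8% were called higher and 25.3% lower by CPM, with a median log2 fold change of -0.01, and 0.528% higher and 97.1% lower per pan-T count. Of 7 Th1 factors 6 were higher and none lower by CPM, while 2 were higher and 5 lower per pan-T count. Tbx21, which encodes T-bet, read 34.5 ± 1.19 CPM in tumor pTreg and 1.78 ± 0.434 CPM in tumor tTreg, or 255 ± 6.13 and 135 ± 31.8 per 10000 pan-T counts. Eomes, its relative, read 16.4 ± 0.877 and 0.208 ± 0.0712 CPM, and 121 ± 5.61 and 15.7 ± 5.28 per 10000 pan-T counts. Tbx21 and Eomes were the 2 Th1 factors called higher on both scales, whereas Stat4, which signals from the IL-12 receptor, stood at 3.11 by CPM and at -0.26 per pan-T count.

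For Th2, 5 of 6 factors were higher and none lower by CPM, whereas per pan-T count the whole list of 6 was lower. Gata3 read 22.4 ± 0.843 CPM in tumor pTreg and 2.99 ± 0.580 CPM in tumor tTreg, and 165 ± 6.11 against 227 ± 48.0 per 10000 pan-T counts. Its log2 fold change per pan-T count was -0.45, whereas that of Il13 was 3.99 and that of Il4 -2.46. Maf, which activates Il4, was higher by CPM at 0.76 and lower per pan-T count at -2.61, and Stat6, which signals from the IL-4 receptor, likewise (0.12 and -3.25).

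Among 6 Th17 factors 4 were higher and 1 lower by CPM, and per pan-T count each of the 6 was lower. Rora read 244 ± 7.11 CPM in tumor pTreg against 33.6 ± 0.972 CPM in tumor tTreg (log2 fold change 2.87), Irf4 was higher at 1.47 and Stat3 at 0.61. Of 4 follicular factors 2 were higher by CPM, Tox2 (3.98) and Bcl6 (0.38), and Tox2 alone was called higher per pan-T count (0.64, 1 of 4, with 3 lower). Ascl2, a further follicular factor, read 0.794 ± 0.198 CPM in tumor pTreg and 1.02 ± 0.197 CPM in tumor tTreg and was not called.

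A list of 10 genes of Treg cell restraint, not all of them repressors of these cytokines, was counted in the same way. By CPM 9 of the 10 were higher and 1, Socs3, was lower at -0.12, and per pan-T count all 10 were lower. Foxp3 was higher by 1.23 by CPM and lower by 2.14 on the log2 scale per pan-T count. Ctla4, the inhibitory receptor, read 130 ± 1.3 CPM in tumor pTreg and 26.3 ± 1.34 CPM in tumor tTreg (2.31 by CPM and -1.06 per pan-T count). Il2ra, the alpha chain of the IL-2 receptor that lets Treg cells take up IL-2, stood at 1.84 and -1.53, and Foxo1, a factor needed to keep Ifng low in Treg cells, at 1.58 and -1.79. Against LN Treg 9 of the 10 were lower in tumor pTreg by CPM, as were 39.8% of filtered genes. Per pan-T count 6 of them were lower and 3 higher, where 4.36% of filtered genes were lower and 90.9% higher.

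Receptors that induce these cytokines were higher in tumor pTreg than in tumor tTreg in 9 of 11 tested cases by CPM (1 lower), and per pan-T count 1 was higher and 9 lower. The subunits of the IL-18 receptor, which raises Ifng with IL-12, were among them, with Il18rap at 82.2 ± 1.61 CPM in tumor pTreg and 7.74 ± 0.445 CPM in tumor tTreg and Il18r1 at 67.3 ± 2.01 and 7.95 ± 1.45 CPM. Per pan-T count their log2 fold changes were 0.05 and -0.28. Il27ra, the IL-27 receptor that induces Il21, stood at 2.84 by CPM and -0.53 per pan-T count. Of 16 tested receptors for the members themselves 8 were higher and 5 lower by CPM, and the 16 were without exception lower per pan-T count. Those with the smallest p were Il2rb (3.11 by CPM), Il21r (2.64) and Il2ra.

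Genes known to respond to the members had smaller fold changes. Between tumor pTreg and tumor tTreg 6 of 10 interferon gamma targets were higher and 2 lower by CPM, at a median of 0.15, beside the log2 fold change of 5.19 for Ifng. Nlrc5, the activator of class I antigen presentation genes, read 150 ± 4.33 CPM in tumor pTreg and 76.5 ± 1.23 CPM in tumor tTreg (0.98), and Socs1, an inhibitor of cytokine signaling, was higher at 1.53. Of 9 genes listed as targets of IL-4 and IL-13, 6 were higher and 3 lower, with Cish at 1.28, Chil3 at 0.64 and Arg1 at 0.47 (228 ± 5.21 against 165 ± 10.5 CPM). Cish was highest in LN Treg, at 248 ± 6.93 CPM, where Chil3 and Arg1 read 0.0929 ± 0.0792 and 0.153 ± 0.0804 CPM. Of 8 tested targets of IL-17 and IL-22, 2 were higher (Lcn2 at 0.56 and Nfkbiz at 0.37) and 4 lower, among them Cxcl1 at -0.46. Macrophages and hepatocytes, whose marker sums are given above for both tumor groups, are known to make many of these targets, and the part of those cells and of the cytokines in these levels was not tested. Per pan-T count all 10, all 9 and all 8 targets of the 3 lists were lower in tumor pTreg.

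Neighboring genes served to show whether whole regions differed. Of 52 genes that start within 100 kb of a member and are not members, 10 were tested between tumor pTreg and tumor tTreg, of which 6 were called higher and 1 lower, at a median log2 fold change of 0.25 (range -0.26 to 4.87). Of all filtered genes 26.8% were called higher and 25.3% lower. In the Th2 region Kif3a stood at -0.26, Rad50 at 0.12 and Irf1 at 0.22, against 7.16 for Il13. Beside Il17a and Il17f, Mcm3 did not pass the test (0.00, adjusted p = 0.976), and beside Il22, Mdm1 stood at 0.32. The highest value, 4.87, was that of Gm49751, which lies on the same strand as Ifng and overlaps it. Reads of the pair cannot be told apart, and Gm49751 had 7.53, 0.252 and 3.26 CPM in tumor pTreg, tumor tTreg and LN Treg. Il3, a hematopoietic growth factor gene next to Csf2, had 8 counts, all in tumor pTreg. Il2 and Il21, 107 kb apart on chromosome 3, were both far higher in tumor pTreg, and Adad1, which overlaps Il2 on the opposite strand, had 3 counts in all libraries together.

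Other cell types can make these cytokines, and their markers were read in the same libraries. The 2 CD8+ T cell markers, Cd8a and Cd8b1, summed to 30.7 to 33.9 CPM in tumor pTreg, 0.939 to 1.26 in tumor tTreg and 18.3 to 23.0 in LN Treg, with neither at 0 in any group. A set of 7 NK cell markers summed to 13.9 to 14.8 CPM in tumor pTreg, 1.86 to 2.92 in tumor tTreg and 6.91 to 8.10 in LN Treg. The most abundant were Prf1, at 6.08 ± 0.526, 0.305 ± 0.169 and 5.18 ± 0.509 CPM in that order, and Gzma, at 5.79 ± 0.0641, 0.644 ± 0.161 and 0.837 ± 0.249 CPM. Of the 7 only Ncr1, the defining NK cell receptor, had no counts in tumor pTreg. A set of 8 mast cell and basophil markers, whose cells are known for Il4 and Il13, summed to 3.10 to 5.01 CPM in tumor pTreg, 4.16 to 6.34 in tumor tTreg and 0.0588 to 0.755 in LN Treg. Of the 8, 6 were at 0 in tumor pTreg, Cpa3, Mcpt8 and Tpsb2 among them. Only 1, Prss34, was at 0 in tumor tTreg, and 3 were at 0 in LN Treg. Ms4a2 made up most of the sum in both tumor groups, at 3.95 ± 0.881 CPM in tumor pTreg and 4.89 ± 0.564 CPM in tumor tTreg. Per 100 pan-T counts the set averaged 0.309 in tumor pTreg, 4.23 in tumor tTreg and 0.00592 in LN Treg. Most genes with a count also stood higher in tumor tTreg on that scale. A set of 6 markers of innate lymphoid cells summed to 43.5 to 44.8 CPM in tumor pTreg, 27.0 to 29.3 in tumor tTreg and 90.8 to 100.1 in LN Treg. Il1rl1, which Treg cells also express, was the most abundant, at 31.7 ± 0.897, 11.9 ± 0.217 and 82.1 ± 3.52 CPM in that order. Hs3st1, the next most abundant, had the opposite order of groups, at 7.67 ± 0.947, 11.5 ± 0.838 and 0.116 ± 0.125 CPM. Of 4 γδ T cell markers 2 were found by name, Sox13 and Trdc. They summed to 14.9 to 16.6, 16.2 to 17.9 and 7.73 to 9.06 CPM in the same order of groups. Sox13 read 11.1 ± 0.924, 13.7 ± 0.999 and 0.187 ± 0.126 CPM in that order, whereas Trdc was highest in LN Treg, at 4.52 ± 0.214, 3.52 ± 0.280 and 7.98 ± 0.572 CPM. Eosinophil markers (4) summed to 7.41 to 8.53 CPM in tumor pTreg, 9.94 to 11.8 in tumor tTreg and 0.0588 to 0.174 in LN Treg. Siglecf made up most of the sum in the tumor groups, at 7.75 ± 0.640 CPM in tumor pTreg and 10.5 ± 0.663 CPM in tumor tTreg. It read 0.0437 ± 0.0291 CPM in LN Treg, and the defining granule gene Epx was at 0 in both tumor groups. Neutrophil markers (5) summed to 40.0 to 41.2, 38.1 to 41.5 and 1.12 to 1.86 CPM, B cell markers (5) to 3.48 to 4.17, 3.06 to 4.05 and 11.8 to 13.3 CPM, and fibroblast markers (5) to 127 to 149, 652 to 774 and 1.65 to 3.22 CPM in that order. The hosts lack γδ T cells of their own, and the part of any of these cells in the results was not tested.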

How the data were processed

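Bulk RNA-seq libraries of total RNA (12, read on a BGISEQ-500 per the labels) were analysed from 2 deposited tables. The first holds counts per gene, handled like expected counts since the authors' tools, per the submitters' processing notes, were STAR 2.7.11a, RSEM 1.3.3 and DESeq2 with GRCm38/mm10 (the notes give no roles). The deposited values are whole numbers already, so rounding changed none. The second holds FPKM as the authors deposited them, a unit scaled to transcript length and library size. The gene annotation, the strand setting of the counting and the number of mice are not given in the sources used here. No column was left unused and no row lacked a gene name. No 2 libraries of a group agreed within sampling noise, with a chi-square of 1.62 to 3.74 per degree of freedom.

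Tests used R 4.3.3 with edgeR 4.0.16 (quasi-likelihood F test, TMM factors, filterByExpr by group, all 12 libraries in 1 fit, group as the only term). Of 27279 genes with any count 15705 were tested. P-values were adjusted within each comparison by the Benjamini-Hochberg method of edgeR, and calls were made below 0.05. Il4 and Il17f, which failed the filter, and counts over all 10 members come from the same fit of all 27279 genes. CPM uses library totals, and means carry the SD over libraries. The pan-T scale divides by the summed counts of 18 genes (24355 to 24593 counts per library in tumor pTreg, 2351 to 2477 in tumor tTreg, 91717 to 110146 in LN Treg). Where a group held no count of a gene, 3 counts summed over its libraries served as a floor, with the counts of the other group taken as exact. Count ratios carry 95% exact binomial (Clopper-Pearson) intervals. Both the floor and the intervals cover counting error only. Alternatives were RLE factors, library totals, scaling to pan-T or to 4 CD3 genes, other filters, DESeq2 1.42.0, limma 3.58.1 (voom, and log2(FPKM + 1) or log2(FPKM + 0.1)), fits of 2 groups only, the replicate block and leaving out each library. Summing Il22 and Iltifb was added after seeing the data.

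The members and all gene lists, the pan-T list included, were chosen with earlier results of these data known. Named genes follow a rule: all members, up to 3 genes with the smallest p per list that reach 1 CPM in the higher group, Foxp3, Tbx21, Gata3, Bcl6 and Maf, the 2 most abundant genes of marker lists, the 2 genes most correlated with each member, and named neighbors. Some genes that the rule names are not reported here. Cd8a, Ncr1, Cpa3, Mcpt8 and Epx are named as defining markers, and Gm49751 because it overlaps Ifng. Replicate numbers were checked for pairing by correlation. With the 3 comparisons pooled, same-numbered libraries stayed within the range of the others. Between the tumor groups alone, the libraries numbered 1 stood at -0.09, just below the -0.071 to 0.097 of differently numbered ones. These values do not exclude shared animals. Positions come from GENCODE vM21 (53292 symbols matched) and promoters from the RefSeq table of GRCm38.p6.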

Additional observations from a re-analysis of the deposited data

Results flagged for a closer look

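Among 19 groups of 4 or 5 libraries with counts, 3 held a library whose distance from its neighbor was a large part of the group's range. Chance alone flags about 1 in 20 such groups. Ifng was lowest in tumor tTreg replicate 5 at 1.88 CPM, where the other 4 libraries read 2.90 to 3.24 CPM, and without that library the log2 fold change between tumor pTreg and tumor tTreg was 5.08. Il2 was highest in LN Treg replicate 2 at 0.274 CPM, from 4 counts where the other libraries had 3. Il17f was highest in the same library at 0.0686 CPM, from 1 count as in every other LN Treg library, in the smallest library of the group.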

How the results depend on the processing

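Between tumor pTreg and tumor tTreg the 8 members that passed the filter were called under every setting that tested 8, and likewise against LN Treg. The filter favors genes that are high in tumor pTreg, so these 8 were partly chosen for that direction. Without a filter 9 of 10 members were called higher than in tumor tTreg, where 16.1% of all genes with a count were. Against LN Treg all 10 were, where 32.5% of all genes with a count were. A filter at a mean of 5 CPM left 1 member, Ifng, tested and called in each of the 3 comparisons. Tumor tTreg against LN Treg had 5 of 8 tested members called, and 3 of 6 with log2(FPKM + 1) and a mean FPKM of at least 1. Genes called between the tumor groups numbered 8184, and 15336 scaled to pan-T and 15366 scaled to CD3 counts, nearly all lower by construction of the scaling; RLE factors gave 3572 higher and 4872 lower, against 4204 and 3980. Leaving out 1 library gave 8 members in both tumor pTreg comparisons and 4 to 5 in the other, and 7162 to 8141, 13450 to 13625 and 14057 to 14153 genes. With the replicate block 8, 8 and 5 members and 7495, 13602 and 14065 genes were called, and the block ended the Il4 call against LN Treg (adjusted p = 0.0565 by edgeR). With the 3 comparisons pooled, deviations from the group means correlated at -0.09 to 0.089 between same-numbered libraries and at -0.184 to 0.309 between differently numbered ones. With 3 to 5 libraries per group these values cannot show whether same-numbered libraries share an animal.

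Log2 fold changes that turned were these. Between the tumor groups Il4 was -2.46 scaled to pan-T and -2.66 to CD3 counts, and Il17f -0.16 to CD3 counts. For tumor tTreg against LN Treg, pan-T and CD3 scaling gave 3.27 and 3.56 for Ifng, 4.43 and 4.70 for Il5, 2.93 and 3.21 for Il13, 4.58 and 4.85 for Il17a, 5.04 and 5.31 for Il17f, and 3.94 and 4.22 for Il21. There the uncalled Il5 ranged from -0.78 to 0.15 and Il17f from -0.89 to 0.25 as libraries were left out (Il5 0.14 without LN Treg replicate 3 and 0.15 without replicate 4; Il17f 0.0020 without LN Treg replicate 2 and 0.25, 0.24 and 0.24 without tumor tTreg replicates 1, 2 and 5), and Il17f was 0.23 with the block. The Il21 call there was also lost on log2(FPKM + 1), at an adjusted p of 0.989. Between the tumor groups the log2 fold change ranged from 5.57 to 6.70 for Il17a, 6.32 to 7.40 for Il21 and 2.95 to 4.08 for Il17f as libraries were left out. Depth limits Il2, Il4, Il5, Il13, Il17a, Il17f, Il21 and Il22, which had 0 to 5 counts per tumor tTreg library.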

Other observations

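Beyond the members, 16 T cell cytokines and ligands were tested between tumor pTreg and tumor tTreg, of which 13 were higher and 1 lower by CPM, and per pan-T count 4 were higher and 12 lower. Of all filtered genes 26.8% were called higher and 25.3% lower by CPM, and 0.528% higher and 97.1% lower per pan-T count. Tnfsf11, which encodes RANKL, read 578 ± 10.0 per 10000 pan-T counts in tumor pTreg, 169 ± 26.9 in tumor tTreg and 60.4 ± 4.08 in LN Treg (log2 fold change between the tumor groups 1.77). By CPM it read 78.4 ± 1.17, 2.23 ± 0.343 and 37.9 ± 2.47 in that order. Cd40lg, the helper ligand that activates B cells and antigen-presenting cells, read 166 ± 2.31, 54.0 ± 13 and 47.9 ± 2.33 in the same order per 10000 pan-T counts (1.63), with tumor tTreg and LN Treg overlapping on that scale. By CPM it was far lower in tumor tTreg, at 0.711 ± 0.161, than in LN Treg, at 30.0 ± 1.24 (log2 fold change -5.29, adjusted p = 6.12e-28 by edgeR), and read 22.6 ± 0.348 in tumor pTreg. Ccl5, a chemokine of effector T cells, read 582 ± 32.7, 744 ± 81.7 and 6.49 ± 0.591 per 10000 pan-T counts, with tumor pTreg the lower of the tumor groups (-0.36, where the median tested gene stood at -3.38). By CPM the direction was the opposite, at 78.8 ± 3.58 in tumor pTreg, 9.84 ± 1.24 in tumor tTreg and 4.07 ± 0.383 in LN Treg (log2 fold change between the tumor groups 3.01, adjusted p = 2.31e-25 by edgeR).

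The genes most like each tested member across the 12 libraries, by Pearson correlation of log2 CPM among 13679 genes, were Cotl1 and Nkg7 for Ifng (0.995 and 0.994), Nkg7 and Baz1a for Il2, Dusp5 and Tbx21 for Il13 (0.994 and 0.990), Ccl5 and Gadd45b for Csf2, Apaf1 and Stk32c for Il17a, B4galt1 and Stk32c for Il21, Sytl3 and Fam110a for Il22, and Fam110a and Stk32c for Il5. The libraries fall into 3 groups and share that structure, so these values describe the order of the groups and carry no test.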
